A study of Mus musculus with 42 samples.

Results

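The genes described here encode the chains of collagen. They were chosen by symbol, as every gene of the array annotation named Col, a number, the letter a and a number, and each gene was represented by its probe of highest mean signal over the 42 arrays. The rule found 41 genes among 19057 genes with 1 symbol. Of these, 11 encode fibrillar chains, 8 encode chains of basement membranes and 22 encode other chains. Col6a3, Col12a1 and Col20a1 were not analysed here, because no probe carried those symbols.

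Collagens are proteins of the extracellular matrix in which chains are wound into a triple helix. Fibrillar collagens, chiefly types I and III with small amounts of type V, form the tension-bearing fibrils of airway walls, vessels and alveolar septa and are made mainly by fibroblasts. Type IV collagen forms the sheet-like network of basement membranes, where the chains of Col4a1 and Col4a2 occur in all tissues and those of Col4a3, Col4a4 and Col4a5 form a network found in the alveolar and glomerular basement membrane. Deposition of fibrillar collagen is the hallmark of lung fibrosis, a known late effect of chest irradiation.

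The lungs came from 129S2 K-rasLA1 mice, a strain whose labels give a G12D mutant K-ras, and the unirradiated controls carried the same allele. In the fractionated group 14 mice (7 male, 7 female) received 5 exposures of 0.2 Gy of 56Fe particles at 1.0 GeV per nucleon. In the acute group 15 mice (8 male, 7 female) received the same total of 1.0 Gy as 1 exposure, and the 13 control mice (7 male, 6 female) were transported to the same site and not irradiated. RNA from the whole left lung was taken at day 70 and hybridised to Illumina arrays, 1 array per mouse. The labels name the whole lobe, with no separation of tumours from other tissue, and state no age of the animals.

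Between 16264 and 18289 probes were detected on an array, and the median signal of an array was between 90.5 and 155. The arrays lay on 8 slides, of which 7 held all 3 groups and both sexes and 1 held a lone fractionated male. Fractionated replicate 13, a female, stood apart: its signals correlated at 0.864 with the median over the arrays, where the other 41 arrays were at 0.961 or above. Its column in the authors' value table was empty, and the series' design text counts 13 fractionated mice where 14 arrays are labelled so. Group levels and differences include it unless stated, and many of the differences named below are also given without it.

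Of the 41 collagen genes, 23 had a signal above background (detection p under 0.01) on at least 13 arrays and were tested, and 14 of these were detected on all 42 arrays. The chains of basement membranes were the fully represented class, with 8 of 8 genes tested, against 5 of 11 fibrillar and 10 of 22 other genes. Of the 18 genes that were not tested, 9 were detected on 0 arrays, 6 on 1 array and 3 on 2 to 12 arrays. Cartilage collagens were among them. Col2a1, the main fibrillar chain of cartilage, and Col11a1, a minor chain of the same fibrils, were each detected in 1 acute lung. Col11a2 was detected in 8 lungs and Col9a1, a chain that coats cartilage fibrils, in 8. Of 7 cartilage markers, Sox9 alone passed the filter, while Acan, Matn1, Matn3, Comp, Cnmd and Hapln1 did not. Col27a1, a fibrillar chain of developing cartilage, was detected on 1 array, that of fractionated replicate 13, and Col13a1, a transmembrane collagen, in 1 other fractionated lung.

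Levels are given as normalised log2 signals, on which a difference of 1 is a 2-fold difference. A level compares lungs for 1 probe and not 1 gene with another. In bulk tissue, fewer cells of a type and less RNA per cell cannot be told apart. Among the fibrillar chains, Col1a1, the major chain of type I collagen, had a lowest, median and highest signal of 9.10, 9.91 and 11.49 in fractionated lungs, 9.73, 10.28 and 11.04 in acute lungs and 9.57, 10.27 and 11.09 in control lungs. The groups overlapped throughout, and the fractionated lungs spread furthest in both directions. Col3a1, the chain of type III collagen, ranged from 6.50 to 9.0 in fractionated lungs (median 7.62), from 6.58 to 8.04 in acute lungs (median 7.34) and from 6.80 to 7.79 in control lungs (median 7.37). The same fractionated lung held the highest Col1a1 and the highest Col3a1 signal of all 42 lungs. Col5a1, which sets fibril diameter together with Col5a2, averaged 9.83 ± 0.48 in fractionated lungs (SD, n = 14), 9.85 ± 0.39 in acute lungs (n = 15) and 9.90 ± 0.32 in control lungs (n = 13). Col1a2 and Col5a2 were near background, detected on 18 and 20 arrays, and averaged 5.64 ± 0.40 and 5.86 ± 0.63 in fractionated lungs, 5.56 ± 0.47 and 5.79 ± 0.38 in acute lungs, and 5.72 ± 0.44 and 5.67 ± 0.34 in control lungs.

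Among the basement membrane chains, Col4a1 had a lowest, median and highest signal of 11.83, 12.89 and 13.47 in fractionated lungs, 12.53, 13.14 and 13.50 in acute lungs and 12.66, 13.05 and 13.50 in control lungs. Col4a2, which pairs with it, ranged from 11.65 to 13.38 in fractionated lungs (median 12.78), from 12.27 to 13.21 in acute lungs (median 12.97) and from 12.59 to 13.18 in control lungs (median 12.94). For both genes the lowest fractionated value was that of replicate 13, and apart from it the groups overlapped almost fully. Col4a3, Col4a4 and Col4a5 averaged 9.98 ± 0.46, 9.38 ± 0.59 and 9.31 ± 0.60 in fractionated lungs, 10.14 ± 0.41, 9.54 ± 0.24 and 9.53 ± 0.28 in acute lungs, and 10.19 ± 0.30, 9.67 ± 0.23 and 9.50 ± 0.18 in control lungs. Col4a6, which assembles with Col4a5 in the basement membrane of smooth muscle, was detected on 28 arrays and averaged 5.90 ± 0.56, 5.89 ± 0.40 and 5.93 ± 0.32 in the fractionated, acute and control lungs. Col15a1 and Col18a1, whose chains carry heparan or chondroitin sulphate at basement membrane zones and release antiangiogenic fragments (endostatin from Col18a1), averaged 7.27 ± 0.62 and 10.59 ± 0.41 in fractionated lungs, 7.12 ± 0.70 and 10.64 ± 0.27 in acute lungs, and 7.17 ± 0.48 and 10.84 ± 0.33 in control lungs. Without replicate 13 the fractionated means (n = 13) of the type IV chains were 12.98 ± 0.31 for Col4a1, 12.82 ± 0.32 for Col4a2, 10.06 ± 0.33 for Col4a3, 9.51 ± 0.31 for Col4a4 and 9.43 ± 0.38 for Col4a5. Col18a1 then stood at 10.70 ± 0.08, a narrower spread than in the acute and control lungs.

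**Figure D1:**
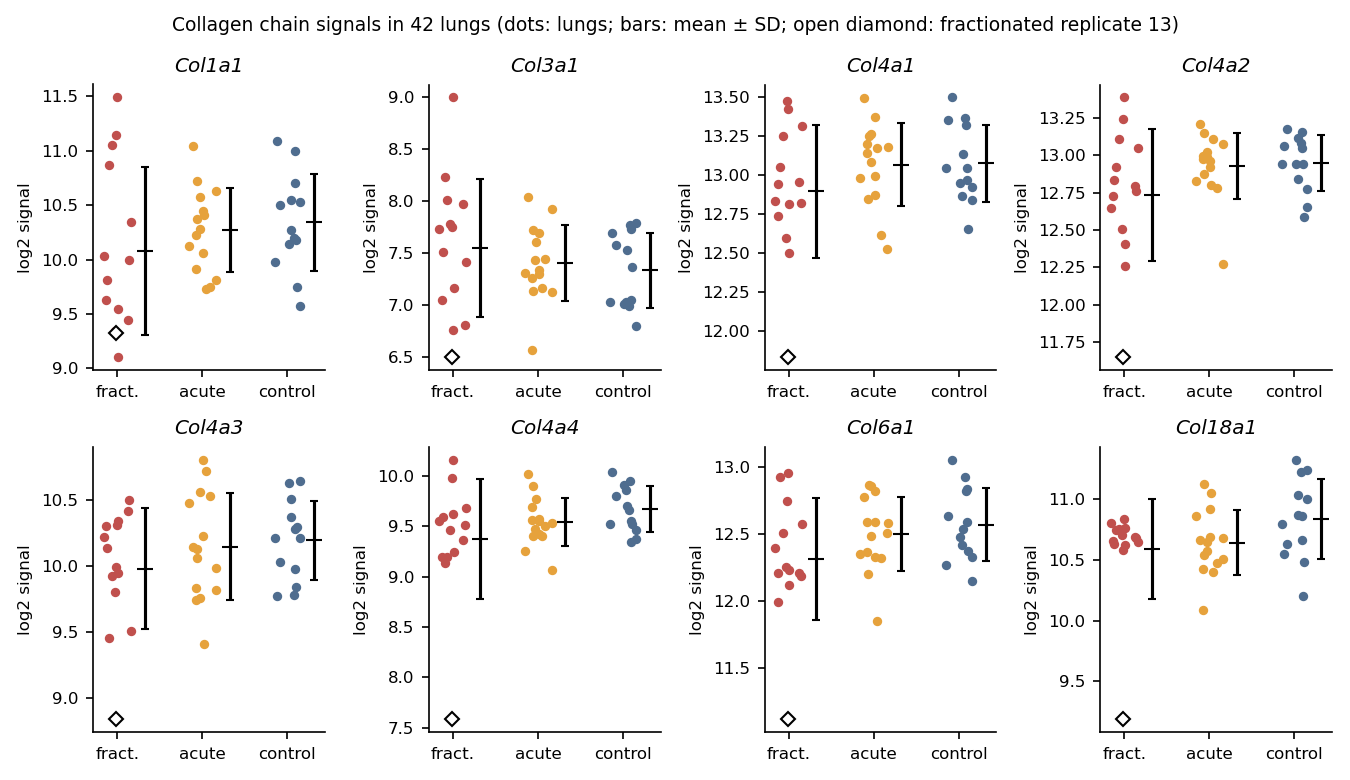
Normalised log2 signal (vertical axes) of 8 collagen genes in fractionated, acute and control lungs; each dot is 1 lung, bars give the mean ± SD, and the open diamond is fractionated replicate 13. The diamond lies below the other lungs in every panel except Col1a1, and the groups otherwise overlap.

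Among the other chains, Col6a1 and Col6a2, which with Col6a3 form the beaded filaments around cells, averaged 12.32 ± 0.46 and 9.68 ± 0.85 in fractionated lungs, 12.50 ± 0.28 and 9.81 ± 0.47 in acute lungs, and 12.57 ± 0.27 and 9.87 ± 0.56 in control lungs. Col8a1 and Col8a2, chains of the short-chain network made by vessel wall cells, averaged 7.62 ± 0.61 and 7.81 ± 0.72 in fractionated lungs, 7.80 ± 0.29 and 7.95 ± 0.45 in acute lungs, and 7.71 ± 0.38 and 7.87 ± 0.36 in control lungs. Col14a1 and Col16a1, which bind to fibril surfaces, averaged 7.62 ± 0.74 and 9.90 ± 0.39 in fractionated lungs, 7.68 ± 0.36 and 9.91 ± 0.23 in acute lungs, and 7.68 ± 0.51 and 9.88 ± 0.20 in control lungs. The transmembrane collagen Col17a1, a hemidesmosome component of basal epithelial cells, averaged 7.30 ± 0.93, 7.34 ± 0.64 and 7.30 ± 0.47 in the fractionated, acute and control lungs. Without replicate 13 the fractionated means were 12.41 ± 0.31 for Col6a1, 9.78 ± 0.79 for Col6a2, 7.98 ± 0.36 for Col8a2, 7.78 ± 0.46 for Col14a1 and 7.46 ± 0.75 for Col17a1. With all lungs, for each of the 7 genes of this paragraph, the differences between group means were smaller than the SD within the fractionated group.

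The first question was whether fractionated irradiation left collagen RNA changed at day 70. No collagen gene passed the test: 0 of 23 were called in limma at an adjusted p under 0.05, against 0 of 17927 probes (0%). At an unadjusted p under 0.05 there was 1 of 23 collagen genes (Col4a4), against 784 probes, or 4.37%. Of the 23 genes, 18 were lower and 5 higher in fractionated lungs, with a median difference of -0.12 on the log2 scale, beside 51.2% of all tested probes lower and a median of -0.0040. The basement membrane chains had a median of -0.20 (7 of 8 lower), the fibrillar chains -0.06 (3 of 5 lower) and the other chains -0.10 (8 of 10 lower). Without fractionated replicate 13 the medians were -0.07 over all 23 genes, with 14 lower, and -0.11 over the basement membrane chains, with 6 of 8 lower, and with array weights in the fit 12 of 23 genes were lower, with a median of -0.03.

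The 5 collagen genes whose brightest probes had the smallest p in this comparison were all lower in fractionated lungs. Col4a4 had a lowest, median and highest signal of 7.58, 9.49 and 10.16 in fractionated lungs, against 9.34, 9.66 and 10.04 in control lungs. The difference was -0.28 ± 0.13 (SE), with a limma adjusted p of 0.934, and -0.15 without replicate 13. Col6a1 ranged from 11.11 to 12.96 in fractionated lungs, against 12.15 to 13.06 in control lungs, a difference of -0.26 ± 0.13, and -0.16 without replicate 13. Col18a1 ranged from 9.19 to 10.83 in fractionated lungs, against 10.20 to 11.32 in control lungs, a difference of -0.24 ± 0.13, and -0.14 without replicate 13. The highest fractionated signal of Col18a1 was below the control median of 10.86, while the lowest apart from replicate 13 was above the lowest control lung. Col4a2 differed by -0.21 ± 0.11 and Col4a3 by -0.21 ± 0.14, both at -0.13 without replicate 13, and all 5 had the same limma adjusted p of 0.934. Dimmer probes had the same sign but other sizes: -0.30 and -0.09 for Col4a4, -0.13 and -0.52 for Col6a1, and -0.07 for Col18a1. The dimmest Col6a1 probe, at -0.52, had a limma unadjusted p of 0.0050 and an adjusted p of 0.934. Within the 7 slides that held both groups, Col4a2 was lower in the fractionated lungs on 6 slides and Col4a4, Col6a1 and Col18a1 on 5 each, and without replicate 13 these counts were 6 and 5 again. Col4a3 was lower on 6 slides, and on 5 without replicate 13.

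The interval of the difference limits what could have been missed. In fractionated against control lungs, the 95% interval of the median collagen gene extended by 0.33 in log2 signal above and below its estimate. For Col1a1 the difference was -0.26 with an interval from -0.68 to 0.16, and for Col3a1 it was 0.22 with an interval from -0.15 to 0.58. Over the brightest probes of the 23 genes no interval reached below -0.68 or above 0.58, so a 2-fold difference of signal lay outside all of them. This does not cover dimmer probes, of which the dimmest of Col6a1 was at -0.52 ± 0.18. For probes near background, such as those of Col1a2 and Col5a2, an interval of signal does not exclude a 2-fold change of RNA. Col3a1 and Col5a2 were the fibrillar chains with a positive difference, 0.22 ± 0.18 and 0.19 ± 0.18, and neither passed the test.

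**Figure D2:**
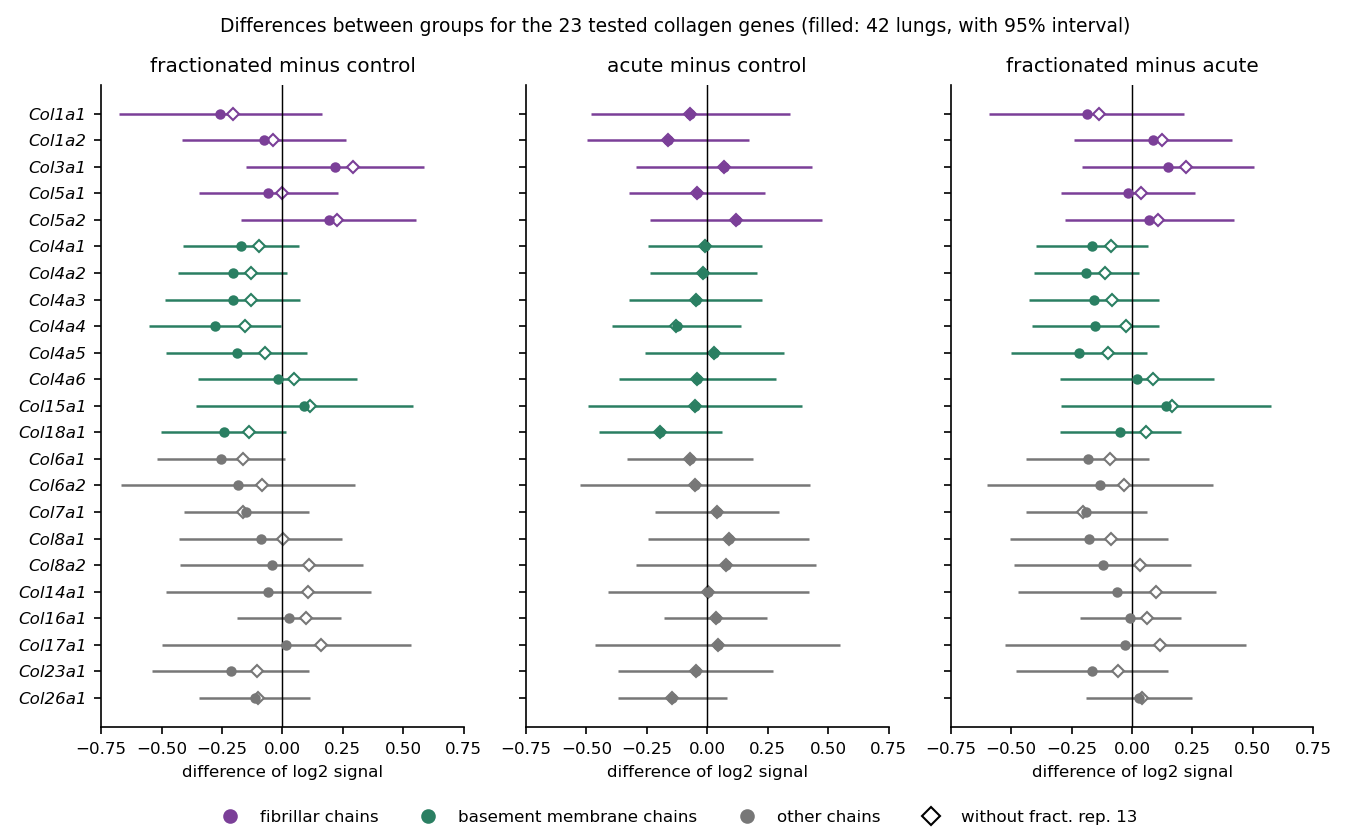
Difference of log2 signal (horizontal axes) for the 23 tested collagen genes in 3 comparisons; filled circles with bars are the limma estimate over 42 lungs with its 95% interval, open diamonds the estimate without fractionated replicate 13. The intervals of Col4a4 in fractionated minus control lungs just miss 0, all others cross it, and in the comparisons that hold the fractionated group the diamonds lie to the right of the circles for every gene except Col7a1.

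Acute irradiation was compared with the same controls, so the control lungs are shared between both comparisons. In limma 0 of 23 collagen genes were called, against 0 of 17927 probes (0%), and at an unadjusted p under 0.05 there were 0 of 23, against 253 probes (1.41%). The median collagen difference was -0.04, with 14 of 23 genes lower, beside 46.7% of all tested probes lower and a median of 0.0075. Scaling the arrays to 1 median in place of quantile normalization turned that sign, with a collagen median of 0.08 and 4 of 23 genes lower, where the median of all tested probes was itself at 0.11 and 14 of 23 collagen genes were below it. Col18a1 had the smallest p: it ranged from 10.09 to 11.12 in acute lungs (median 10.64), against 10.20 to 11.32 in control lungs (median 10.86), a difference of -0.19 ± 0.13 (limma adjusted p = 1.00). It was lower in acute lungs on 6 of 7 slides. A dimmer probe of Col18a1 gave the opposite sign, 0.06. The next were Col26a1 with -0.14 ± 0.11, Col1a2 with -0.16 ± 0.17, Col4a4 with -0.13 ± 0.13 and Col5a2 with 0.12 ± 0.18. Of these, Col4a4 was also of opposite sign by its dimmer probes, at 0.04 and 0.05. Col1a1 differed by -0.07 ± 0.20 and Col3a1 by 0.07 ± 0.18.

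Fractionated and acute irradiation delivered the same total dose, and the direct comparison of both groups asked whether the schedule mattered. Again 0 of 23 collagen genes were called in limma, against 0 of 17927 probes (0%), with 0 of 23 and 372 probes (2.08%) at an unadjusted p under 0.05. The sign of the collagen median depended on 1 lung: it was -0.12 with 17 of 23 genes lower in fractionated lungs, and 0.03 with 11 lower without fractionated replicate 13, 0.04 in the authors' table, which lacks that array, and 0.02 with array weights. With median scaling it was -0.22, where the median of all tested probes was -0.10. Col4a2 had the smallest p, with -0.19 ± 0.11, and -0.11 without replicate 13. Col4a5 differed by -0.22 ± 0.14, and by -0.10 without it. Col7a1, the anchoring fibril chain of the skin and other epithelia, differed by -0.19 ± 0.12, and by -0.20 without it. The brightest probe of Col6a1 gave -0.18 ± 0.13 and its second probe 0.0040, and Col4a1 differed by -0.16 ± 0.11. Without replicate 13 the brightest probe of Col6a1 was at -0.09 and Col4a1 at -0.09. All had a limma adjusted p of 1.00. In the F test over the 3 groups 0 of 23 collagen genes were called, against 0 of 17927 probes (0%), with 370 probes (2.06%) and 0 collagen genes at an unadjusted p under 0.05. Col4a2 had the smallest p among the members (0.125, limma adjusted p = 1.00).

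Fractionated replicate 13 was the lung in which collagen signals departed most. Of the 23 genes, 17 were below all 41 other lungs, 0 were above all others and 6 lay within their range. Of all 17927 tested probes, 4981 (27.8%) were below all other lungs and 4260 were above all others. The genes below included 7 of 8 basement membrane chains and 8 of 10 other chains, but 2 of 5 fibrillar chains (Col3a1 and Col5a1). Its median difference from the other lungs' medians was -1.29 on the log2 scale. Col8a2 was at 5.61, against 6.92 to 8.52 in the other lungs. Col17a1 was at 5.26, against 5.84 to 8.39, and Col14a1 at 5.53, against 6.78 to 8.51. By contrast, Col15a1 at 7.12 lay close to the median of the others, 7.16, Col7a1 at 6.42 lay close to 6.36, and Col1a1 at 9.32, Col1a2, Col5a2 and Col26a1 were also within range. All 6 endothelial markers, all 5 alveolar type 1 markers, all 4 tested smooth muscle markers and 6 of 7 fibroblast markers were below all other lungs there. So were all 4 tested heart muscle markers and 2 of 5 alveolar type 2 markers, but 0 of 3 tested mesothelial and 0 of 2 tested adipose markers. The summed signal of the fibroblast markers was 24028 in that lung, against 31720 to 56198 in the other 41, and that of the endothelial markers 8343, against 14323 to 44778. Summed cell cycle markers stood at 20157, against 550.4 to 1860 in the other lungs, and Cd3e, a T cell gene, at 10217, against 181 to 697. Of the 6 genes listed for immature T cells Cd3e alone was tested, and it does not by itself tell immature from mature T cells. Cd4, Cd8a, Rag1, Ptcra and Dntt did not pass the filter. As the filter asks for detection on at least 13 arrays, this does not show whether these genes were expressed in that lung. The part of these cells in the collagen signals was not tested.

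Collagen signals also varied with slide. Over the 41 lungs without fractionated replicate 13, the median share of a collagen gene's variance that lay between slides was 36.7%, close to the 34.2% of all tested probes. It ranged from 6.47% for Col7a1 to 79.1% for Col6a2. The share is not adjusted for the number of slides and is positive even where slides do not differ. A low value such as that of Col7a1 thus does not show a slide effect. Slides 3, 4 and 5, which were set apart after the data were seen, held 17 arrays, and 18 of the 23 genes were higher and 5 lower there than on the other slides, while 49.6% of all tested probes were higher. Col6a2 averaged 10.41 on these slides, against 9.40 on the others. Col1a1 averaged 10.67, against 9.96, and Col14a1 averaged 8.07, against 7.45. Col4a3 went the other way, with 9.86 on slides 3 to 5, against 10.33 on the others. Slides 3 to 5 held 5 of 14 fractionated, 7 of 15 acute and 5 of 13 control arrays. With slide as a block, the fractionated minus acute difference was -0.04 for Col6a2, against -0.13 without the block, and -0.11 for Col1a1, against -0.19. Acute minus control for Col6a2 was -0.10 with the block, against -0.05 without it, and no collagen gene was called between groups in either fit.

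A second probe of the same gene often showed the opposite slide shift. Of 13 further tested probes of 10 collagen genes, 9 shifted with the opposite sign to the gene's brightest probe, although the shift of 1 of them (a dimmer probe of Col17a1) was only -0.00034. For Col6a1 the brightest probe was 0.42 higher on slides 3 to 5, while the other probes were at -0.52 and -0.24. For Col6a2 the brightest probe was 1.02 higher and the second at -0.26, and for Col3a1 the values were 0.34 and -0.22. For Col4a4 the 3 probes shifted by 0.20, 0.92 and -0.31. On these slides the probes of 1 gene thus disagreed in direction, and the cause was not tested. Within slides the probes of a gene moved together: the correlation with the brightest probe over 41 lungs had a median of 0.54 (from -0.26 to 0.88), and on deviations from slide means a median of 0.70 (from 0.41 to 0.90), higher for 13 of 13 probes. For Col6a1 it was -0.26 for the second probe on the signals and 0.70 on the deviations, and for Col6a2 it was -0.16 and 0.68. These correlations are descriptions, and the probes of a gene share its array.

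**Figure D3:**
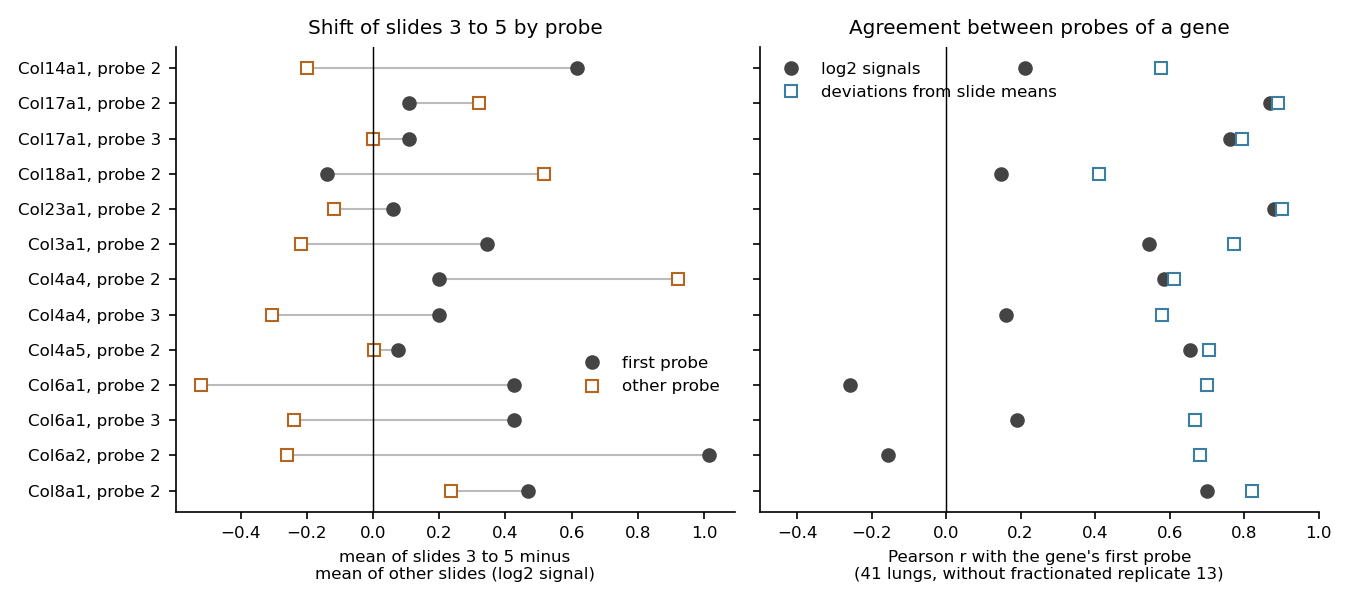
Left, mean log2 signal of slides 3 to 5 minus that of the other slides for the brightest probe of a collagen gene (filled) and for a further probe of the same gene (open squares). Right, Pearson correlation of each further probe with the brightest over 41 lungs, on log2 signals (filled) and on deviations from slide means (open squares); every open square lies to the right, with Col6a1 and Col6a2 moving from below 0 to about 0.7.

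The next question was whether chains that share a trimer or a fibril varied together from lung to lung. Of 14 such pairs, 9 had both chains tested, and p-values come from permutation tests with 100000 draws, adjusted over the 9 pairs. Col4a1 and Col4a2, whose chains build 1 trimer, varied most closely. Over 42 lungs Pearson's r was 0.91 and Spearman's rho 0.89 (adjusted p = 2.25e-05 and 4.5e-05); the unadjusted p of 1e-05 is the smallest that these draws can give. It was 0.85 without the 2 lungs farthest from the median of Col4a1, 0.87 without replicate 13 and 0.82 on deviations from slide means without it, and it was positive on 6 of 6 slides with enough arrays.

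The genes Col4a1 and Col4a2 lie head to head on mouse chromosome 8. In the RefSeq promoter table of build GRCm38.p6 their starts are 21 bases apart on opposite strands, so that their windows, from 250 bases before to 50 bases after each start, share 78 bases. Both windows are shown because they carry the most closely covarying of the tested partner pairs. The shared stretch is in capitals, and each window reads 5′ to 3′ on its own strand. Col4a1 is chr8:11312777-11313076 on the minus strand and Col4a2 is chr8:11312555-11312854 on the plus strand.
Col4a1: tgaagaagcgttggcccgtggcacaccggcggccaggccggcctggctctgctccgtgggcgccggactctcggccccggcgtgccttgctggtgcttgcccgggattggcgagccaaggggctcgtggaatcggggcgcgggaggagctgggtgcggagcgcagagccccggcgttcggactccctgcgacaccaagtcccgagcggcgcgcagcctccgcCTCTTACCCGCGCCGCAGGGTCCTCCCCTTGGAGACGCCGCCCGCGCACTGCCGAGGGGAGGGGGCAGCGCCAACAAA
Col4a2: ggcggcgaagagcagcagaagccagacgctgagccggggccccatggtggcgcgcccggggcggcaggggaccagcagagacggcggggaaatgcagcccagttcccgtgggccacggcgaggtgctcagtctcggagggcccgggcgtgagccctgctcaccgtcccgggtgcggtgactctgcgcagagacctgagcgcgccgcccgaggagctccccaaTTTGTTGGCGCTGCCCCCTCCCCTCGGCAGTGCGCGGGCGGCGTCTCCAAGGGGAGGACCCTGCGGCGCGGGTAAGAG

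Searched on both strands, the shared stretch holds 1 match to GGGCGG, the letters of a GC box. It holds no match to CCAAT, the letters of a CCAAT box, and none to the TATA box letters TATAAA. Over the 36 promoter windows of 33 collagen genes in the table, 23 (63.9%) held GGGCGG on either strand, beside 35.7% of all 32851 windows of the same length. CCAAT was in 13 (36.1%), beside 37.4% of all windows, and TATAAA in 5 (13.9%), beside 13.6%. Such matches describe letters and not bound sites. The starts of Col4a5 and Col4a6, another pair of opposed neighbours, are 1343 bases apart, and their windows do not overlap.

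The fibrillar chains also covaried. Col1a1 and Col3a1 had r = 0.67 and rho = 0.62 (permutation test, adjusted p = 2.25e-05 and 6e-05), and r stayed at 0.58 without the 2 farthest lungs, 0.64 without replicate 13 and 0.72 on slide deviations without it. Col3a1 and Col5a2 had r = 0.68 and rho = 0.57 (adjusted p = 2.25e-05 and 0.000158), with r = 0.59, 0.67 and 0.61 in the same order of alternatives. For Col1a1 and Col1a2, the chains of 1 type I trimer, r was 0.55 and rho 0.56 (adjusted p = 0.000288 and 0.000162), 0.53 without the 2 farthest lungs and 0.54 without replicate 13, but 0.35 on slide deviations without it (adjusted p = 0.0556), and the Col1a2 probe was detected on 18 arrays only. For Col5a1 and Col5a2 no covariation passed the test (r = 0.21, rho = 0.10, adjusted p = 0.189 and 0.517). Col6a1 and Col6a2 had r = 0.84 and rho = 0.86 (adjusted p = 2.25e-05 and 4.5e-05), 0.85 without the 2 farthest lungs, 0.83 without replicate 13 and 0.55 on slide deviations without it (adjusted p = 0.00517). On slides 3 to 5 the brightest probes of both genes were higher, as given above, and their other probes lower. Within single slides, r was positive on 6 of 6 slides for Col3a1 and Col5a2. It was positive on 5 of 6 for Col1a1 and Col3a1 (lowest -0.64) and for Col6a1 and Col6a2 (lowest -0.71). For Col1a1 and Col1a2 it was positive on 3 of 6 (lowest -0.36), as for Col5a1 and Col5a2 (lowest -0.29).

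Col4a3 and Col4a4, which build 1 trimer with Col4a5, showed covariation mainly within slides. Over 42 lungs r was 0.44 and rho 0.10 (permutation test, adjusted p = 0.00862 and 0.517). The relation rested on replicate 13: r was 0.06 without the 2 farthest lungs and 0.09 without that lung (adjusted p = 0.57). On deviations from slide means, r was 0.80 with it and 0.56 without it (adjusted p = 6e-05 and 0.00099), and it was positive on 6 of 6 slides, from 0.21 to 0.94. The brightest probe of Col4a3 was 0.48 lower on slides 3 to 5 and that of Col4a4 0.20 higher, which the plot of partner chains shows as separate clouds. For Col4a5 and Col4a6, r was 0.54 and rho 0.54 (adjusted p = 0.00051 and 6e-04), 0.42 without the 2 farthest lungs, 0.43 without replicate 13 and 0.34 on slide deviations without it (adjusted p = 0.0684). For Col8a1 and Col8a2, r was 0.48 and rho 0.36 (adjusted p = 0.00261 and 0.0273), and it rested on few lungs, with 0.25 without the 2 farthest, 0.27 without replicate 13 (adjusted p = 0.114) and 0.24 on slide deviations without it (adjusted p = 0.171). Within single slides, r was positive on 5 of 6 slides for Col4a5 and Col4a6 (lowest -0.55) and for Col8a1 and Col8a2 (lowest -0.03).

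**Figure D4:**
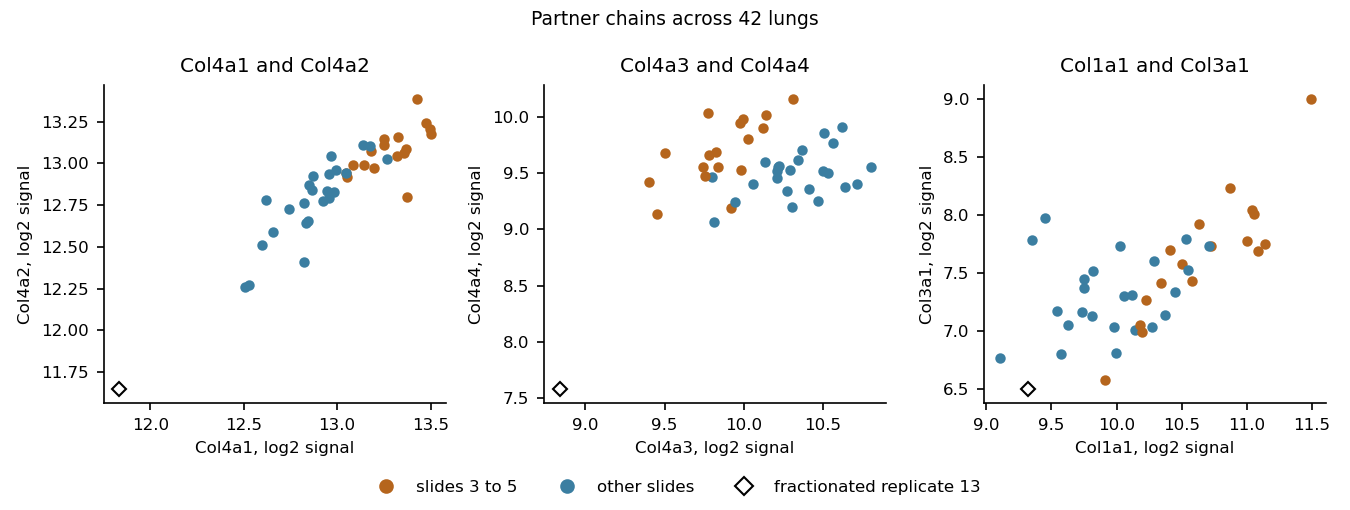
Log2 signals of partner chains in 42 lungs, 1 point per lung, for Col4a1 and Col4a2, Col4a3 and Col4a4, and Col1a1 and Col3a1; brown points lie on slides 3 to 5, blue points on other slides, and the open diamond is fractionated replicate 13. Col4a1 and Col4a2 follow 1 line over all slides (r = 0.91), whereas Col4a3 and Col4a4 form a cloud for each set of slides.

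Across all 253 pairs of the 23 genes the median correlation over 41 lungs was 0.23, and on slide deviations 0.22. Over 41 lungs it was 0.44 among the fibrillar chains, 0.19 among the basement membrane chains and 0.14 among the other chains. The pairs of highest correlation on slide deviations lay both within and across these classes. Col1a1 with Col6a2 stood at 0.86, Col4a1 with Col4a2 at 0.82 as given above, Col17a1 with Col23a1, both transmembrane collagens, at 0.78, Col23a1 with Col4a5 at 0.78 and Col17a1 with Col5a1 at 0.77. Col15a1 ran against several of them, with -0.64 for Col23a1 and -0.57 for Col8a2. These values were picked for their size among 253 pairs, come from the same arrays, and have no test.

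Sex was the other known difference between the mice. Called in limma were 318 probes (1.77%), of which 219 (1.22%) were higher and 99 (0.552%) lower in males, and 0 of 23 collagen genes. At an unadjusted p under 0.05 there were 5 of 23 collagen genes, a share near the 16.8% (3016) of all tested probes. The median collagen difference, male minus female, was 0.15 with 19 of 23 genes higher in males, beside 51.3% of all tested probes lower in males, and 0.10 with 7 genes lower without fractionated replicate 13, a female.

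The collagen genes of smallest p between the sexes included Col4a4 and Col4a3, chains of the alveolar and glomerular network. Col4a4 had a lowest, median and highest signal of 9.24, 9.63 and 10.16 in 22 males, against 7.58, 9.46 and 9.80 in 20 females, and the lowest female apart from replicate 13 was at 9.07. The difference was 0.33 ± 0.11 (limma adjusted p = 0.0997), and 0.24 ± 0.07 without replicate 13 (adjusted p = 0.0582), a fit in which 0 of 23 collagen genes and 400 probes (2.23%) were called. Its other probes gave 0.33 ± 0.19 and 0.33 ± 0.13. Col4a3 averaged 10.25 ± 0.33 in males, against 9.94 ± 0.41 in females (SD, n = 22 and 20), with ranges of 9.74 to 10.80 and 8.84 to 10.47, a difference of 0.30 ± 0.11 (adjusted p = 0.146) and 0.25 ± 0.10 without replicate 13. For both genes males were higher on 7 of 7 slides, by 0.09 to 0.68 for Col4a4 and by 0.13 to 0.61 for Col4a3, and by 0.05 to 0.57 and 0.08 to 0.46 without replicate 13. When slide was a block and replicate 13 was left out, both were called, Col4a4 with 0.26 ± 0.06 (limma adjusted p = 0.0190) and Col4a3 with 0.24 ± 0.07 (adjusted p = 0.0426), 2 of 23 collagen genes where 868 probes (4.84%) were called. Col4a5, the remaining chain of that trimer, differed by 0.22 ± 0.12, and by 0.14 without replicate 13.

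Col23a1 ranged from 9.10 to 10.65 in males (median 10.17), against 8.18 to 10.49 in females (median 9.78), a difference of 0.38 ± 0.13 (limma adjusted p = 0.119), and its second probe gave 0.38 ± 0.14. Col8a2 differed by 0.38 ± 0.15 (limma adjusted p = 0.173) and Col5a1 by 0.28 ± 0.11 (limma adjusted p = 0.187). These differences include replicate 13, which held the lowest female signal of each of these genes. That signal was 8.18 for Col23a1, 5.61 for Col8a2 and 8.98 for Col5a1, against 8.92, 6.92 and 9.28 in the next lowest female. Males and females overlapped over most of their ranges for all 5 genes. With array weights in the fit, 3 collagen genes were called among 1165 probes (6.5%): Col4a4 with 0.26 (limma adjusted p = 0.0256), Col23a1 with 0.33 (adjusted p = 0.0408) and Col8a2 with 0.32 (adjusted p = 0.0493).

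The markers of several cell types differed in 1 direction between the sexes, and none of these genes was called. All 5 alveolar type 1 markers were higher in males (median 0.14, and 0.08 without replicate 13), and their summed signal ranged from 42456 to 61661 in males, against 22777 to 58203 in females and 40370 to 58203 in females without replicate 13. All 4 tested heart muscle markers were higher in males (median 1.08, and 0.86 without replicate 13), with summed signals of 1419 to 34943 in males, against 227 to 20838 in females. All 5 tested cell cycle markers were lower in males (median -0.75, and -0.52 without replicate 13), with summed signals of 550.4 to 1546 in males, against 690 to 20157 in females and 690 to 1860 without replicate 13. All 4 tested smooth muscle markers (median 0.28, and 0.18 without replicate 13), all 3 tested mesothelial markers (0.47, and 0.43) and 5 of 6 endothelial markers (0.22, and 0.13) were higher in males, as were 6 of 7 fibroblast markers (0.13, and 0.03 with 4 of 7). Of the alveolar type 2 markers 4 of 5 were lower in males, and 5 of 5 without replicate 13 (medians -0.22 and -0.26). Their part in the collagen differences was not tested.

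**Figure D5:**
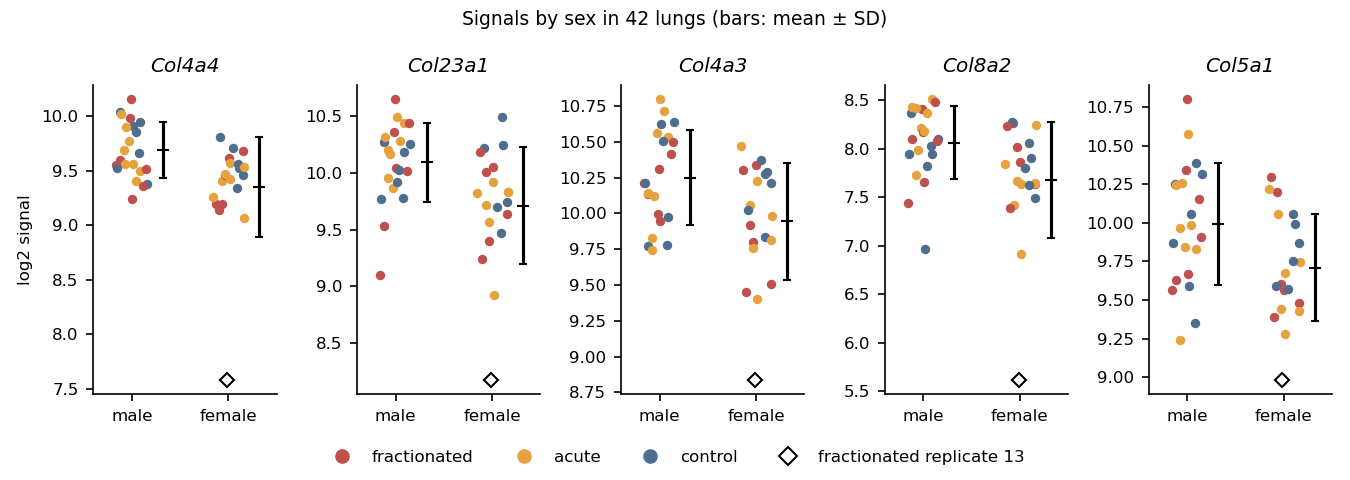
Log2 signal of the 5 collagen genes of smallest p between the sexes, in 22 male and 20 female lungs; points are lungs coloured by group, bars give the mean ± SD, and the open diamond is fractionated replicate 13. Male means lie above female means in each panel and the ranges overlap.

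Whether irradiation acted differently in males and females was tested as an interaction. No collagen gene was called in limma in either interaction: 0 of 23 against 0 of 17927 probes (0%) for the fractionated schedule, with 460 probes (2.57%) and 1 collagen gene at an unadjusted p under 0.05, and 0 of 23 against 0 of 17927 (0%) for the acute schedule, with 370 probes (2.06%) and 1 collagen gene. Col4a6 had the smallest p for the fractionated schedule, with a difference of differences, male minus female, of 0.81 ± 0.31 (limma unadjusted p = 0.0126, adjusted p = 1.00). This value includes replicate 13, whose Col4a6 signal of 4.93 was the lowest of all females, against 5.22 in the next lowest. It also includes the fractionated male that was alone on its slide, whose 7.05 was the highest Col4a6 signal of all lungs, against 6.59 in the next highest. The Col4a6 probe was detected on 28 arrays only. Col18a1 had the smallest p for the acute schedule, with -0.50 ± 0.24 (limma unadjusted p = 0.0457, adjusted p = 1.00).

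Genes that make, assemble or remove collagen were described from lists. Between the groups 0 genes of any list were called, with limma adjusted p of at least 0.934 in the fractionated against control comparison for those of smallest p. In fractionated against control lungs 15 of 20 tested genes of collagen synthesis and folding were lower (median -0.06, and -0.02 without replicate 13). The smallest p values were those of P4ha2 and P4ha1, catalytic subunits of prolyl 4-hydroxylase, with -0.17 ± 0.08 and -0.27 ± 0.16, and -0.10 and -0.22 without replicate 13. Of the processing and cross-linking genes 4 of 6 were lower (median -0.15, and -0.06 without replicate 13), with Lox, the lysyl oxidase that cross-links fibrils, at -0.32 ± 0.19, and -0.27 without it. Of the proteins that decorate fibrils 9 of 9 were lower (median -0.16, and -0.07 without it, with 8 lower), and Dcn, the small proteoglycan decorin, was at -0.22 ± 0.13, and -0.17 without it. Of the other basement membrane proteins 9 of 11 were lower (median -0.12, and -0.04 without it), with the laminin chains Lama5 and Lama2 at -0.17 ± 0.09 and -0.28 ± 0.16, and -0.11 and -0.24 without it.

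Receptors and breakdown genes showed no common direction once that lung was left out. Of the collagen receptors 6 of 7 were lower in fractionated lungs, and 2 of 7 without replicate 13. Of the breakdown genes 4 of 8 were lower, and 3 of 8 without it. Timp1, an inhibitor of matrix metalloproteinases, had the smallest p of all these lists, with a difference of 0.67 ± 0.28 (limma adjusted p = 0.934) and 0.62 without replicate 13, and Timp2 was at -0.26 ± 0.13, and -0.16 without it. Elastic fibre genes, with 7 of 8 lower in fractionated lungs (median -0.12, and -0.09 without replicate 13), were 8 of 8 lower in acute lungs (median -0.08), against the same controls. In the acute comparison, the largest difference by p was that of Fkbp14, a folding enzyme for procollagen, with -0.25 ± 0.12 (limma adjusted p = 1.00).

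Between the sexes 1 of the 69 tested genes of these 7 lists was called, a share near the 1.77% of all tested probes: Lamc3, a laminin chain, with 0.54 ± 0.12 (limma adjusted p = 0.0076). Without replicate 13, 3 of the 69 were called, beside 2.23% of all tested probes. Mfap4, a microfibril protein bound to elastic fibres, was also called, at -0.50 (adjusted p = 0.0249), as was Fmod, the fibril-binding proteoglycan fibromodulin, at -0.37 (adjusted p = 0.0417). With all 42 lungs these were at -0.43 ± 0.14 and -0.35 ± 0.10, with adjusted p of 0.0910 and 0.0595.

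Markers of most of the cell types examined were lower in fractionated than in control lungs, as were the collagens. In fractionated against control lungs 7 of 7 fibroblast markers and 6 of 6 endothelial markers were lower (medians -0.26 and -0.26), and without replicate 13 these were 5 of 7 and 5 of 6 (medians -0.12 and -0.12), none of them called. The summed fibroblast signal ranged from 24028 to 51542 in fractionated lungs, from 39135 to 51768 in acute lungs and from 36795 to 56198 in control lungs. The summed endothelial signal ranged from 8343 to 39024 in fractionated lungs, from 14323 to 44778 in acute lungs and from 24111 to 41272 in control lungs. All 4 tested smooth muscle markers (median -0.19, and -0.03 with 2 of 4 without replicate 13), all 4 tested heart muscle markers (-0.66, and -0.34), both tested adipose markers (-1.22, and -1.04) and all 3 tested mesothelial markers (-0.16, and -0.11) were also lower in fractionated lungs. So were 5 of 5 markers each of alveolar type 1 (-0.16, and -0.07 with 4 of 5) and type 2 cells (-0.16, and -0.07), while 5 of 5 cell cycle markers were higher (0.41, and 0.09). In acute lungs, against the same controls, 6 of 7 fibroblast markers (median -0.09) and 5 of 6 endothelial markers (-0.12) were also lower. So were 3 of 4 smooth muscle (-0.10), 4 of 4 heart muscle (-0.32), 2 of 2 adipose (-0.93) and 3 of 3 mesothelial markers (-0.08). The same held for 4 of 5 markers each of alveolar type 1 (-0.05) and type 2 cells (-0.09), while 5 of 5 cell cycle markers were higher (0.08). None of these markers was called in either comparison. Their part in the collagen differences was not tested.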

How the data were processed

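Total RNA of whole left lung from 42 mice was labelled with biotin and hybridised to Illumina arrays, per the labels. Per the file headers, the first deposited table gives, for each array, the average intensity of every probe (linear, not normalized) and the p-value of its detection. A second deposited table holds log2 values that the authors had normalized, with 41 filled columns, each with a median of 3.96; its Spearman correlation with the signals was at least 0.9999 per array. Its background step, centring and software are not given in the sources used here, and it served as an alternative only.

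Signals were background corrected with neqc of limma 3.58.1 (R 4.3.3), with the background inferred from the detection p-values, an offset of 16, quantile normalization and log2. Probes with a detection p under 0.01 on at least 13 arrays were tested (17927 of 45281), in 1 limma fit of group and sex with two-sided p-values and Benjamini-Hochberg adjustment over all tested probes, called at an adjusted p under 0.05. The fit was tested on simulated data. Differences are given ± SE and levels ± SD. The number of arrays limits the precision. Symbols came from the platform annotation (34885 probes with 1 symbol, 18 with several, 10378 with none), and 41 members were found by current symbols as well. The labels do not number the replicates, which are numbered in accession order.

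The members and gene lists were chosen with earlier results of these data known. Named are the 5 collagen genes of smallest p in each comparison, called members, a fixed set of chains for levels, and members of smallest p of the other lists. Alternatives were slide as a block, leaving out fractionated replicate 13, both together, other normalizations and filters, the authors' table, no sex term, array weights and other probes of a gene; within-slide differences and slide deviations without replicate 13 were added after the data were seen.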

Additional observations from a re-analysis of the deposited data

How the results depend on the processing

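No paired analysis was possible because the labels give the groups no shared replicate numbers; slide, given by the labels, was fitted as a block instead. The 0 collagen genes called between groups stayed 0 under every alternative run. Over the collagen genes of smallest p in the 3 comparisons between groups, 142 further values kept their direction. Among these genes the sign turned in acute minus control for Col18a1 by its second probe (0.0577). It also turned there for Col4a4 by its dimmer probes (0.0449 and 0.0453), and in fractionated minus acute for Col6a1 by its second probe (0.0040). Other collagen genes named above were not part of this count. In acute minus control, 14 of 23 collagen genes were lower in the main fit and 4 of 23 with median scaling, so signs also turned outside it. For male minus female, where 318 probes were called, the number was 538 with slide as a block, 868 with that block and without fractionated replicate 13, 76 with median scaling, 186 with no detection filter and 1165 with array weights, and the collagen genes called were 2 with the block and without that replicate and 3 with array weights. Covariation lost its call for Col4a3 and Col4a4 (0.0904) and Col8a1 and Col8a2 (0.27) without fractionated replicate 13, and on slide deviations without it for Col1a1 and Col1a2 (0.35), Col4a5 and Col4a6 (0.34) and Col8a1 and Col8a2 (0.24). The cause of these changes was not tested. Probes near background, such as those of Col1a2 and Col5a2, limit the comparisons of those chains.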
